A study of Sus scrofa with 8 samples.

Results

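Genes for protein folding in the endoplasmic reticulum (ER) and for the unfolded protein response were followed in cartilage of the mandibular condyle, from the joint between jaw and skull of the pig. The set was a list of 40 gene symbols, and members were the rows of the deposited table that carried one of those symbols, out of 18898 genes in the table. In all, 37 of the 40 were analysed and 36 passed the filter on low counts. There were 4 osteoarthritis and 4 control libraries, all from pigs labelled wild type. The cell type is labelled condylar cartilage cells, and RNA came from tissue. In the osteoarthritis group the model is a surgical perforation of the joint disc with a 5.0 mm punch, per the labels' protocols. The labels give the control libraries that protocol text too and do not say whether controls had sham surgery. The libraries are labelled biological replicates. Breed, age, time after surgery and whether each replicate is a separate animal are not given in the sources used here, so the p-values speak only of the spread among these 8 libraries, which may be in part technical.

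Proteins that cells secrete, among them the collagens and proteoglycans of cartilage, are folded in the ER with the help of chaperones and of enzymes that form disulfide bonds. Proteins that fail to fold are taken back to the cytosol and degraded. When unfolded proteins build up, 3 sensors of the ER membrane start the unfolded protein response: ATF6 and IRE1 (gene ERN1, acting through XBP1) raise chaperone and degradation genes, and PERK (gene EIF2AK3) slows translation while the transcription factor ATF4 is made. Chondrocytes carry a heavy secretory load, and XBP1 and ATF6 signalling are known to be active in growing cartilage.

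A few members could not be followed. SDF2L1, an ER cochaperone, was not analysed here. ERN1 was left out because the gene identifier that the reference table names ERN1 is named ICAM2 in the deposited table. SYVN1, a ubiquitin ligase of ER degradation, was left out because the names of a pair of gene models are crossed between the deposited table and the reference table. The model deposited as SYVN1 (ENSSSCG00000027057) is FAU in the reference table, and the model that the reference table calls SYVN1 (ENSSSCG00000039740) carries the Entrez identifier of FAU in the deposited table. DNAJB11 had no symbol in the deposited table and was matched by gene identifier. DDIT3, the stress transcription factor CHOP, has a model under its own symbol (ENSSSCG00000044553) that was too low to be tested and a second model (ENSSSCG00000050998) named by the reference table alone.

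Total estimated counts were 11354200 to 25412939 per osteoarthritis library and 13028760 to 19710638 per control library. Mitochondrial genes took 0.773% to 3.16% of counts in osteoarthritis and 5.46% to 20.7% in controls, without overlap (exact two-sided permutation p = 0.0286, the smallest that 70 assignments can give; adjusted p = 0.057 over 6 library measures). Short non-coding RNA genes took 2.17% to 3.44% in osteoarthritis and 7.94% to 15.6% in controls, also without overlap (exact permutation p = 0.0286). On the first principal component of all genes, which held 40.7% of the variance, controls 1 and 3 lay at -94.8 and -95.2 and the other 6 libraries between -0.817 and 58.1. On the second component, which held 25.4%, control 2 lay at -98.8, control 4 at -28.1 and the other 6 libraries between -14.6 and 48.1. Controls 1 and 3 thus stand apart from the rest, and control 2 stands apart from control 4, with a TMM factor of 0.424 against 1.04 and the largest chi-square per degree of freedom of any replicate pair (545). Medians of the roles, and the members where it bears on them, are given below also with controls 1 and 3 or controls 2 and 4 left out. These alternatives were chosen after seeing the data, on the first component over all genes.

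None of the members passed the test for a difference between osteoarthritis and control. DNAJB9, HERPUD1, ERO1B and EDEM1 were higher in every osteoarthritis library than in any control, with log2 fold changes of 1.31, 0.97, 0.93 and 0.50. These are 4 of 36 members, against 5.69% of all genes tested. Most of the abundant chaperones and disulfide isomerases, among them HSP90B1, PDIA4, PDIA6 and HSPA5, were lowest in controls 2 and 4, while osteoarthritis lay near or below controls 1 and 3. The ATF4 arm had no shared direction: CHAC1, TRIB3 and ASNS had positive fold changes, and ATF4, SESN2 and PPP1R15A negative ones.

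By edgeR's quasi-likelihood test with Benjamini-Hochberg adjustment over the 16020 genes tested, 0 of 36 members passed an adjusted p under 0.05, where 0.618% of all genes tested passed. At an unadjusted p under 0.05, 6 members were higher and 0 lower in osteoarthritis, against 7.52% higher and 7.65% lower over all genes. DESeq2 called 2 members, DNAJB9 and HERPUD1, both higher, against 4.75% of all genes it tested. By limma-voom 0 were called, against 0.743% of all genes. With sample weights, limma-voom called 5 (DNAJB9, HERPUD1, ERO1B and CHAC1 higher, CRELD2 lower), against 20.8% of all genes. A fold change above 0 was found for 26 of 36 members, against 50.4% of all genes. The groups did not overlap, with osteoarthritis lower, for 0 members, against 5.52% of all genes. Where a level differs in such tissue RNA, fewer cells of a type and less RNA per cell cannot be told apart.

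**Figure D1:**
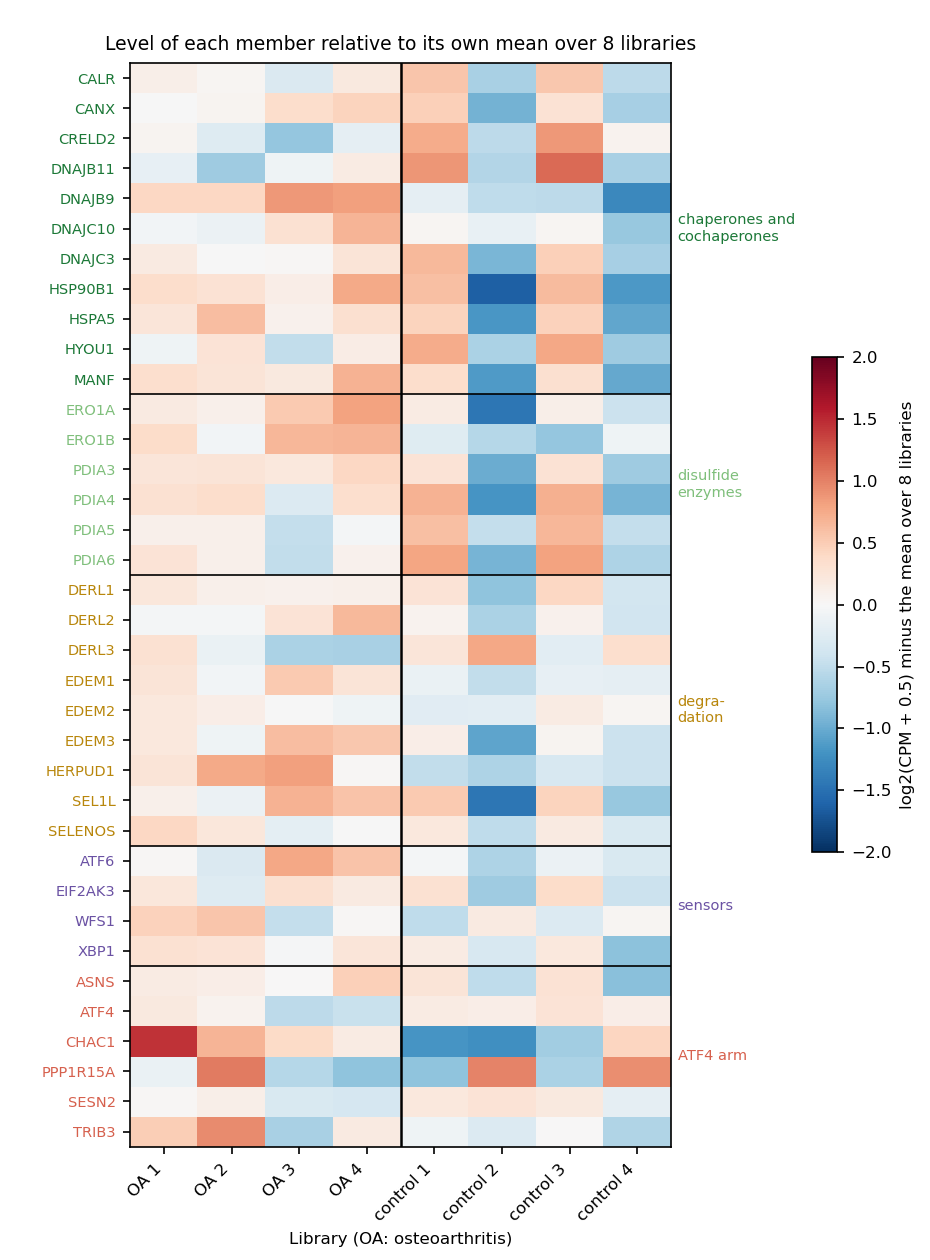
Each row is a member that passed the filter and each column a library, with osteoarthritis (OA) left of control; colour is log2(CPM + 0.5) minus that member's mean over the 8 libraries, and row labels are coloured by role. Chaperones and disulfide enzymes are blue in controls 2 and 4, except CRELD2 in control 4, and red in controls 1 and 3, except DNAJB9 and ERO1B, while HERPUD1 and DNAJB9 are red or near white in the 4 OA columns and blue in the 4 control columns.

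Per length, in the deposited TPM (transcript counts over length, scaled to a fixed sum), the list spans abundant and rare transcripts. In osteoarthritis the highest were PDIA3 at 219 ± 58.8 TPM, HSPA5 at 207 ± 36.3 TPM and CALR at 206 ± 49.5 TPM (SD, n = 4), values whose SDs overlap. These encode a disulfide isomerase of glycoproteins, the Hsp70 chaperone BiP and the lectin chaperone calreticulin. In controls the same genes were at 49.2 ± 29.4, 44.7 ± 30.8 and 66.6 ± 40.1 TPM (SD, n = 4). Lowest among tested members in osteoarthritis was DERL3 at 0.989 ± 0.219 TPM, and in controls it was at 0.447 ± 0.219 TPM. TPM is used here only to order genes within a group, since short non-coding RNA genes made up 31.7% to 40.1% of TPM in osteoarthritis and 50.9% to 58.8% in controls. All levels that follow are CPM (counts scaled to a fixed library total with TMM factors), which are not divided by length, and fold changes are log2 values of osteoarthritis over control.

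Among chaperones and cochaperones, DNAJB9 was the member with the smallest p. DNAJB9 (ENSSSCG00000016653; Sscrofa11.1 chromosome 18, bases 36578928 to 36584211) encodes ERdj4, a J-domain protein that XBP1 is known to induce and that keeps IRE1 in check. It was at 9.47, 9.39, 13.04 and 12.6 CPM in osteoarthritis replicates 1 to 4 and at 6.11, 4.72, 4.66 and 2.55 CPM in control replicates 1 to 4. The lowest osteoarthritis library was thus above the highest control, control 1. The group means were 11.13 ± 1.97 CPM in osteoarthritis and 4.51 ± 1.47 CPM in controls (SD, n = 4 each; log2 fold change 1.31 ± 0.29 (SE), edgeR adjusted p = 0.086), and over the alternatives the adjusted p ran from 0.0039 to 0.34. Its counts were 111 to 473 per osteoarthritis library and 30 to 80 per control library. Dropping any 1 of the 8 libraries left it uncalled, and its log2 fold change was 1.71 without controls 1 and 3 and 1.02 without controls 2 and 4.

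HSPA5 (ENSSSCG00000005601; chromosome 1, bases 265930044 to 265934959) encodes BiP, the chief chaperone of the ER and the standard readout of ATF6. Osteoarthritis replicates 1 to 4 held it at 189, 246, 169.8 and 199.8 CPM, and control replicates 1 to 4 at 218, 71.03, 218 and 77.4 CPM. Controls 1 and 3 lay within the osteoarthritis range, and controls 2 and 4 at less than any osteoarthritis library (log2 fold change 0.46 ± 0.40 (SE), edgeR adjusted p = 0.63). With controls 1 and 3 left out its log2 fold change was 1.48 (edgeR adjusted p = 0.057), and with controls 2 and 4 left out -0.15 (edgeR adjusted p = 0.74).

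MANF, a secreted ER stress protein that binds BiP, followed HSPA5, at 25.4, 23.9, 23.1 and 32.7 CPM in osteoarthritis replicates 1 to 4 and 25.7, 8.82, 24.98 and 9.61 CPM in control replicates 1 to 4 (log2 fold change 0.60 ± 0.37 (SE), edgeR adjusted p = 0.48). DNAJC10, the reductase cochaperone ERdj5, was at 41.6, 39.9, 53.4 and 69.5 CPM in osteoarthritis and 44.3, 39.1, 44.4 and 25.4 CPM in controls (log2 fold change 0.42 ± 0.25 (SE), edgeR adjusted p = 0.47). Control 4 was the lowest library for DNAJC10, and the groups overlapped for both genes. DNAJB11 (ERdj3) and CRELD2, both targets of ATF6, pointed the other way. DNAJB11 was at 8.91, 5.92, 9.43 and 11.2 CPM in osteoarthritis and 18.9, 6.46, 22.5 and 6.23 CPM in controls (log2 fold change -0.61 ± 0.44 (SE), edgeR adjusted p = 0.56). CRELD2 was at 7.32, 5.75, 3.87 and 6.12 CPM in osteoarthritis and 12.00, 4.72, 13.1 and 7.403 CPM in controls (log2 fold change -0.70 ± 0.34 (SE), edgeR adjusted p = 0.38). For both, all 4 osteoarthritis libraries were below controls 1 and 3, and the osteoarthritis range took in control 2. With controls 2 and 4 left out, both were called lower (DNAJB11 at -1.24, edgeR adjusted p = 0.035, and CRELD2 at -1.16, edgeR adjusted p = 0.045). Many genes were called in that setting, 1241 over all genes against 99 with all 8 libraries. These 2 calls are therefore not particular to the members. With controls 1 and 3 left out DNAJB11 was at 0.53, without a call.

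The remaining chaperones were HSP90B1 (GRP94), CALR, CANX (calnexin), HYOU1 (GRP170) and DNAJC3 (p58IPK), with log2 fold changes from -0.23 for HYOU1 to 0.46 for HSP90B1 and edgeR adjusted p from 0.69 to 0.95. HSP90B1 had the widest spread among controls, at 215, 205, 184 and 283 CPM in osteoarthritis replicates 1 to 4 and 255, 53.7, 261 and 75.5 CPM in control replicates 1 to 4. Of the 11 chaperones, 7 were above 0, and their median was 0.32 against 0.0049 over all genes (0.10 to 0.50 with a library left out). That median turned with the controls: it was 0.96 without controls 1 and 3, -0.25 without controls 2 and 4 and -0.029 when limma-voom weighted the samples.

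Among disulfide enzymes, the isomerases and the oxidase ERO1A held the split among controls, and the oxidase ERO1B did not. ERO1B, an ER oxidase that reoxidises the isomerases, was at 5.23, 3.81, 6.56 and 6.65 CPM in osteoarthritis replicates 1 to 4 and 3.29, 2.52, 2.11 and 3.73 CPM in control replicates 1 to 4 (log2 fold change 0.93 ± 0.28 (SE), edgeR adjusted p = 0.18). All osteoarthritis libraries were higher than every control, by a narrow margin between osteoarthritis 2 and control 4. Its log2 fold change was 0.85 without controls 1 and 3 and 1.02 without controls 2 and 4. Its counts were low, 45 to 249 per osteoarthritis library and 16 to 76 per control library. ERO1A, the widely expressed oxidase, which low oxygen also induces, was at 22.5, 21.3, 28.8 and 34.96 CPM in osteoarthritis and 22.4, 6.93, 21.5 and 14.6 CPM in controls (log2 fold change 0.71 ± 0.35 (SE), edgeR adjusted p = 0.38). The groups overlapped for ERO1A, with controls 2 and 4 the lowest libraries.

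PDIA3 (ERp57), which works with calreticulin and calnexin on glycoproteins, was at 175, 176, 169.9 and 195 CPM in osteoarthritis and 179, 73.9, 180.1 and 89.8 CPM in controls (log2 fold change 0.45 ± 0.31 (SE), edgeR adjusted p = 0.53). PDIA6 was at 83.8, 74.2, 48.7 and 72.8 CPM in osteoarthritis and 119.8, 35.9, 120.3 and 44.7 CPM in controls (log2 fold change -0.20 ± 0.41 (SE), edgeR adjusted p = 0.86). PDIA5, which is known to act on ATF6, was at 14.9, 14.98, 9.84 and 13.6 CPM in osteoarthritis and 21.3, 9.92, 22.4 and 9.85 CPM in controls (log2 fold change -0.26 ± 0.32 (SE), edgeR adjusted p = 0.75). For all 3 the groups overlapped, with controls 2 and 4 the lowest libraries of PDIA3 and PDIA6. The mean of controls 1 and 3 was more than 2-fold that of controls 2 and 4 in each (2.19, 2.98 and 2.21 times), and in PDIA4 (3.39 times). PDIA4 itself was at 0.12 ± 0.45 (edgeR adjusted p = 0.93). Of the 6 disulfide enzymes, 4 were above 0, with a median of 0.29 (0.04 to 0.52 with a library left out). It too changed sign, at 1.01 without controls 1 and 3, -0.29 without controls 2 and 4 and -0.071 with voom sample weights.

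Degradation genes were mostly measured higher in osteoarthritis, and HERPUD1 was the member with the smallest p among them. HERPUD1 (ENSSSCG00000040663; chromosome 6, bases 18901171 to 18913427) encodes a membrane protein that assembles the degradation complex and answers to all arms of the response. It was at 69.04, 97.2, 103 and 58.3 CPM in osteoarthritis replicates 1 to 4 and 40.6, 37.5, 46.1 and 42.7 CPM in control replicates 1 to 4. The controls lay close together and all below the osteoarthritis libraries, with means of 81.8 ± 21.5 CPM in osteoarthritis and 41.7 ± 3.62 CPM in controls (SD, n = 4 each; log2 fold change 0.97 ± 0.22 (SE), edgeR adjusted p = 0.093; 0.0062 to 0.36 over the alternatives). Its deposited feature length was 1.21 times as long in osteoarthritis as in controls, and with length as an offset it was at 0.67 (edgeR adjusted p = 0.15). It was at 1.07 without controls 1 and 3 and 0.89 without controls 2 and 4.

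EDEM1, which draws misfolded glycoproteins out of the folding cycle, also did not overlap, at 54.7, 44.00, 65.2 and 54.2 CPM in osteoarthritis replicates 1 to 4 and 41.4, 32.1, 40.4 and 39.96 CPM in control replicates 1 to 4 (log2 fold change 0.50 ± 0.18 (SE), edgeR adjusted p = 0.24). Its relative EDEM3 was at 44.7, 36.6, 59.8 and 56.8 CPM in osteoarthritis and 42.6, 18.4, 40.3 and 28.7 CPM in controls (log2 fold change 0.60 ± 0.29 (SE), edgeR adjusted p = 0.37), where osteoarthritis 2 lay below controls 1 and 3. DERL2, a pore component of the export machinery, was at 9.47, 9.56, 11.97 and 15.7 CPM in osteoarthritis and 10.3, 6.14, 10.4 and 7.403 CPM in controls (log2 fold change 0.45 ± 0.25 (SE), edgeR adjusted p = 0.44). The groups overlapped for both, with controls 2 and 4 lowest. DERL3 had the 1 negative fold change of this role, at 3.63, 2.54, 1.66 and 1.63 CPM in osteoarthritis and 3.44, 5.197, 2.38 and 3.73 CPM in controls (log2 fold change -0.64 ± 0.36 (SE), edgeR adjusted p = 0.44), from 30 to 61 counts per osteoarthritis library and 27 to 76 per control library. DERL3 is typical of plasma cells. Of 7 markers of plasma and B cells, 5 were in the table, and their summed level was 84.3 to 124 CPM in osteoarthritis and 164 to 201 CPM in controls, nearly all of it CD79A. Of the genes typical of plasma cells, MZB1 was at most 0.443 CPM in osteoarthritis and 0.784 CPM in controls, and JCHAIN at most 8.601 CPM in osteoarthritis and 3.58 CPM in controls. The part of these cells in the DERL3 level was not tested.

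SEL1L, EDEM2, DERL1 and SELENOS, further parts of the export machinery, were at log2 fold changes of 0.45 ± 0.43, 0.12 ± 0.17, 0.17 ± 0.27 and 0.20 ± 0.24 (SE), with edgeR adjusted p from 0.67 to 0.80. Altogether 8 of 9 degradation genes were above 0, with a median of 0.45 (0.16 to 0.54 with a library left out). The degradation median was 0.74 without controls 1 and 3, 0.063 without controls 2 and 4, 0.068 with voom sample weights and 0.26 with the length offset. The models that share the name SYVN1 were at -0.16 ± 0.29 for the one so named in the deposited table (edgeR adjusted p = 0.84) and 0.50 ± 0.98 for the other (edgeR adjusted p = 0.85). The second of these had 1129, 608, 906 and 1725 counts in osteoarthritis replicates 1 to 4 and 717, 0, 677 and 441 counts in control replicates 1 to 4.

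**Figure D2:**
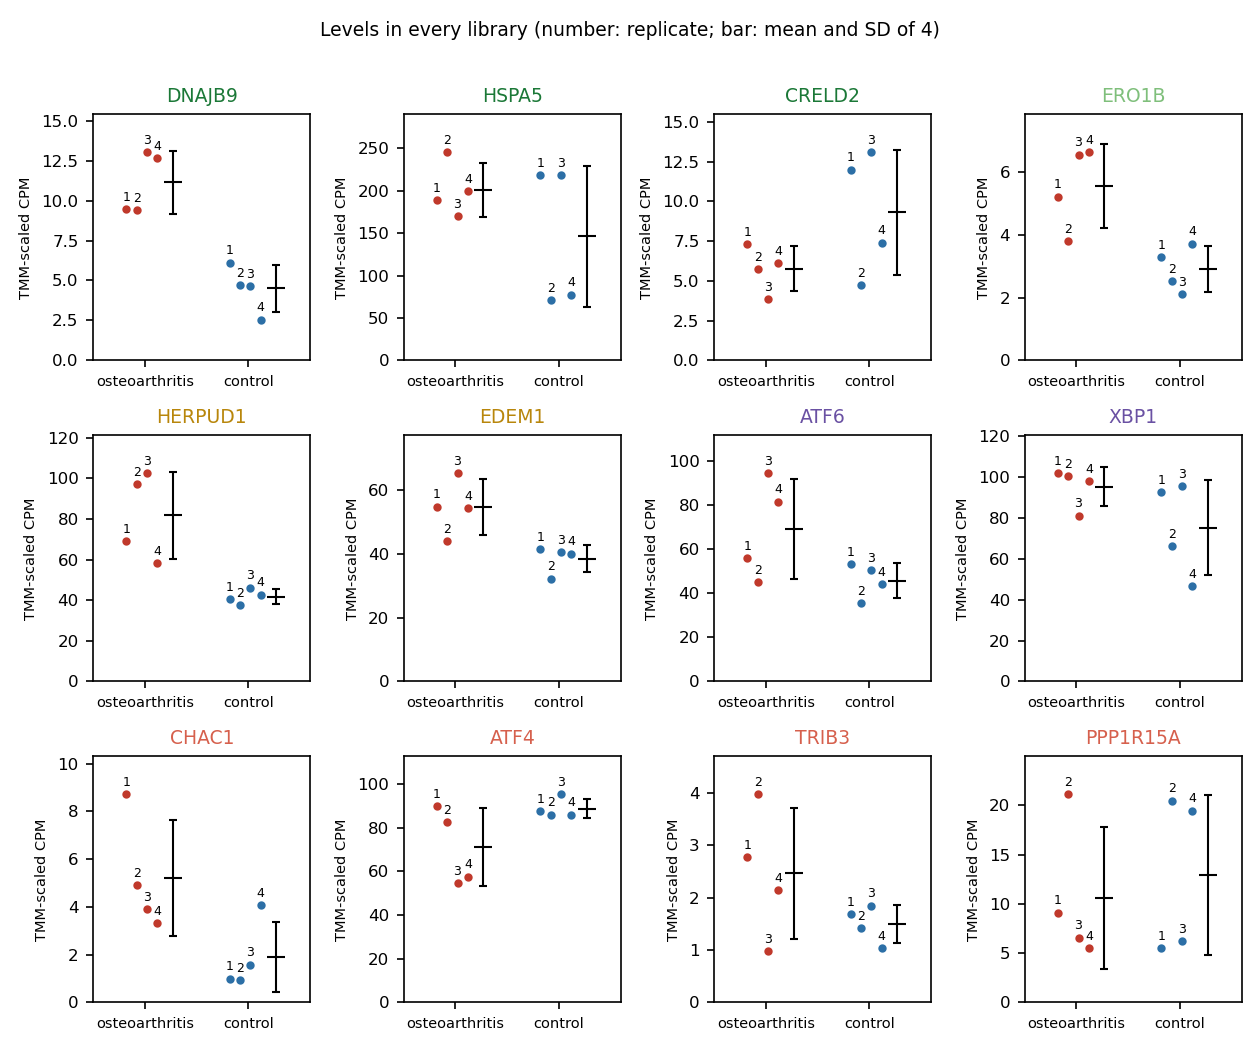
TMM-scaled CPM of 12 members in osteoarthritis (red) and control (blue) libraries, each point a library labelled by its replicate number and each bar the mean and SD of 4; title colours follow the roles. DNAJB9, ERO1B, HERPUD1 and EDEM1 show no overlap of groups, HSPA5 and CRELD2 show controls 1 and 3 well above controls 2 and 4, and PPP1R15A shows the reverse order among controls.

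All 4 sensors and transducers tested had fold changes above 0, and none passed the test. ATF6, the sensor that is cut in the Golgi to free a transcription factor, was at 55.8, 44.9, 94.5 and 81.5 CPM in osteoarthritis replicates 1 to 4 and 53.04, 35.4, 50.4 and 44.2 CPM in control replicates 1 to 4 (log2 fold change 0.60 ± 0.26 (SE), edgeR adjusted p = 0.33). Osteoarthritis 1, 3 and 4 were above all controls, and osteoarthritis 2 was within their range. XBP1, whose spliced messenger RNA encodes the active factor, was at 102, 100.4, 81.2 and 97.9 CPM in osteoarthritis and 92.6, 66.3, 95.7 and 46.6 CPM in controls (log2 fold change 0.34 ± 0.25 (SE), edgeR adjusted p = 0.55). Gene-level counts do not separate spliced from unspliced XBP1, so the activity of IRE1 cannot be read from them. Osteoarthritis 3 was below controls 1 and 3 for XBP1, and control 4 was lowest. EIF2AK3 (PERK) was at 31.8, 22.8, 34.3 and 30.9 CPM in osteoarthritis and 33.6, 16.4, 35.3 and 20.1 CPM in controls (log2 fold change 0.18 ± 0.28 (SE), edgeR adjusted p = 0.80). All osteoarthritis libraries of EIF2AK3 were above controls 2 and 4, and 3 of 4 were below both other controls. WFS1, an ER membrane protein that restrains ATF6, was at 42.9, 45.7, 22.1 and 31.7 CPM in osteoarthritis and 21.6, 35.4, 25.7 and 31.9 CPM in controls (log2 fold change 0.31 ± 0.27 (SE), edgeR adjusted p = 0.62). Osteoarthritis 3 was lowest in its group for WFS1, within the control range. The median of the role was 0.33 (0.26 to 0.41 with a library left out), 0.78 without controls 1 and 3 and 0.19 without controls 2 and 4.

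In the ATF4 arm, CHAC1 had the largest fold change of any member, without a call. CHAC1 (ENSSSCG00000038521; chromosome 1, bases 130360510 to 130363332) encodes a glutathione-degrading enzyme that ATF4 and CHOP induce. It was at 8.73, 4.91, 3.902 and 3.31 CPM in osteoarthritis replicates 1 to 4 and 0.994, 0.945, 1.58 and 4.07 CPM in control replicates 1 to 4 (log2 fold change 1.40 ± 0.52 (SE), edgeR adjusted p = 0.26; 0.023 to 0.49 over the alternatives). Controls 1 to 3 were below every osteoarthritis library, and control 4 was above osteoarthritis 3 and 4. Without control 4 its log2 fold change was 2.105 (edgeR adjusted p = 0.078). It was 0.99 without controls 1 and 3 and 1.98 without controls 2 and 4. The counts behind it were 58 to 142 per osteoarthritis library and 6 to 83 per control library. TRIB3, a pseudokinase that dampens ATF4, was at 2.77, 3.98, 0.976 and 2.14 CPM in osteoarthritis and 1.68, 1.42, 1.85 and 1.03 CPM in controls, with osteoarthritis 3 the lowest of the 8 libraries (log2 fold change 0.71 ± 0.45 (SE), edgeR adjusted p = 0.49).

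ATF4 itself (ENSSSCG00000000084; chromosome 5, bases 8742964 to 8745752), which is controlled chiefly through its translation, was at 90.01, 82.4, 54.6 and 57.6 CPM in osteoarthritis replicates 1 to 4 and 87.7, 85.99, 95.4 and 85.9 CPM in control replicates 1 to 4 (log2 fold change -0.32 ± 0.21 (SE), edgeR adjusted p = 0.51). The controls were close together, osteoarthritis 2, 3 and 4 were below them, and osteoarthritis 1 lay within the control range. ASNS, asparagine synthetase, was at 12.8, 12.5, 11.5 and 16.03 CPM in osteoarthritis and 13.7, 7.87, 14.1 and 6.18 CPM in controls (log2 fold change 0.34 ± 0.29 (SE), edgeR adjusted p = 0.62). SESN2, a sestrin that restrains mTORC1, was at 4.43, 4.74, 3.43 and 3.31 CPM in osteoarthritis and 5.12, 5.35, 5.01 and 3.77 CPM in controls (log2 fold change -0.28 ± 0.23 (SE), edgeR adjusted p = 0.62). The groups overlapped for both genes, with controls 2 and 4 lowest for ASNS. PPP1R15A (GADD34), which restarts translation, was uneven in both groups, at 9.099, 21.2, 6.56 and 5.502 CPM in osteoarthritis replicates 1 to 4 and 5.503, 20.5, 6.25 and 19.5 CPM in control replicates 1 to 4 (log2 fold change -0.30 ± 0.57 (SE), edgeR adjusted p = 0.85). Osteoarthritis 2 and controls 2 and 4 were high and the other 5 libraries were low.

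For DDIT3 (ENSSSCG00000044553; chromosome 5, bases 22785441 to 22789867), the model under its own symbol had 8, 0, 10 and 25 counts in osteoarthritis replicates 1 to 4 and 4, 0, 6 and 16 counts in control replicates 1 to 4, too few to test. The second model was at 2.46, 4.82, 1.596 and 2.32 CPM in osteoarthritis and 2.83, 7.402, 2.99 and 6.03 CPM in controls (log2 fold change -0.79 ± 0.44 (SE), edgeR adjusted p = 0.44). Its controls were split as for PPP1R15A, with controls 2 and 4 the highest of the 8 libraries. In RefSeq's annotation of Sscrofa11.1 DDIT3 overlaps its neighbour MARS, and counts near their shared end may be divided between them. Of the other members located there, DNAJB9, HSPA5, HERPUD1, CHAC1, EDEM1, ERO1B, ATF4, XBP1 and TRIB3 overlap no annotated gene. HSP90B1, DNAJB11, DNAJC3, PDIA6, ERO1A, ATF6, DERL2 and DERL3 each overlap another annotated gene, and their counts are uncertain to that extent.

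**Figure D3:**
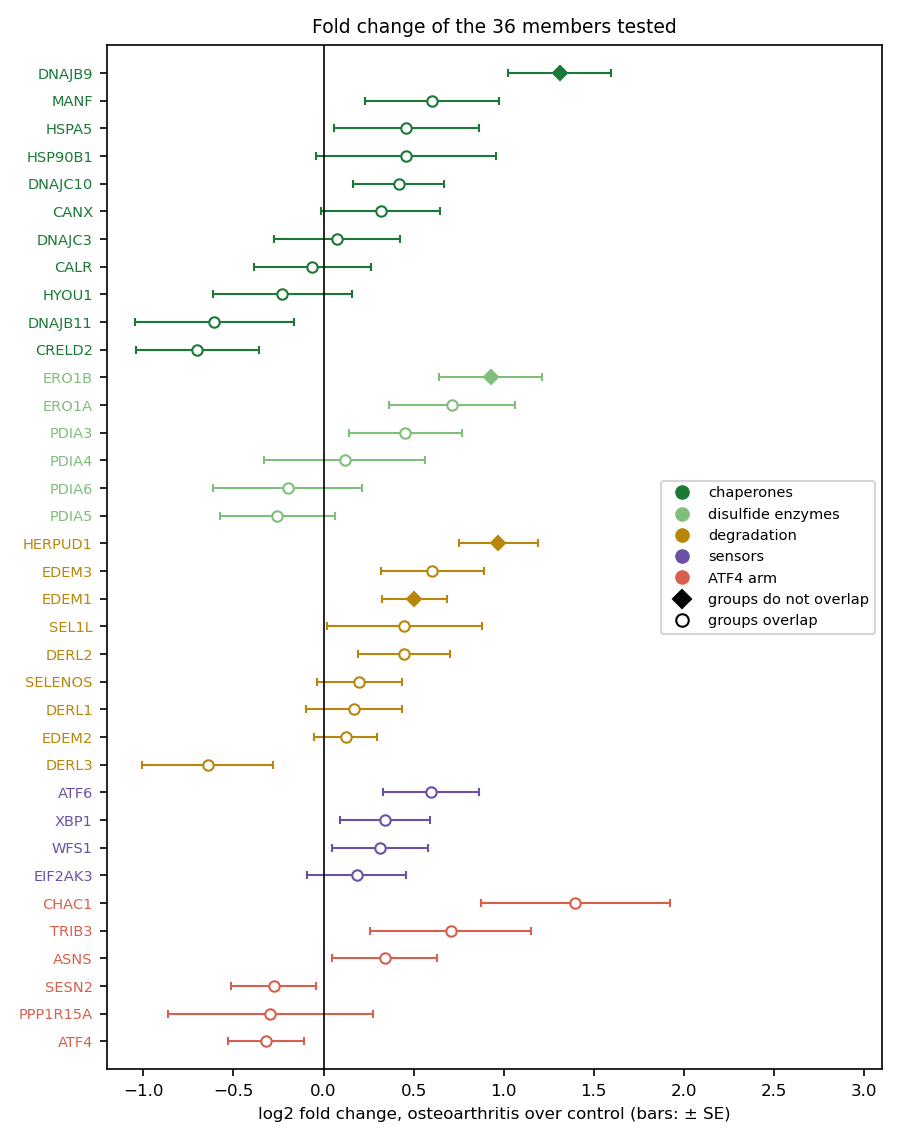
log2 fold change of osteoarthritis over control with its SE for each of the 36 members tested, grouped and coloured by role; filled diamonds mark members whose groups do not overlap. Among them DNAJB9 is at 1.31, HERPUD1 at 0.97, ERO1B at 0.93 and EDEM1 at 0.50, and the ATF4 arm lies on both sides of 0.

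The question put to the arms was whether the ATF6/XBP1 targets and the ATF4 arm differed between the groups in a like way. The 22 tested targets of ATF6 and XBP1 (chaperones, PDIA isomerases and most degradation genes) had a median log2 fold change of 0.26, with 15 of 22 above 0. The 6 tested genes of the ATF4 arm had a median of 0.031, with 3 of 6 above 0, and of -0.28 with the second DDIT3 model added. The mean log2(CPM + 0.5) of the ATF6/XBP1 targets was 5.38, 5.32, 5.24 and 5.48 in osteoarthritis replicates 1 to 4 and 5.58, 4.47, 5.56 and 4.60 in control replicates 1 to 4. The osteoarthritis libraries therefore sat between the 2 pairs of controls, nearer to controls 1 and 3. For the ATF4 arm the same mean was 3.45, 3.58, 2.81 and 2.96 in osteoarthritis and 2.84, 2.99, 2.99 and 3.07 in controls. Here the means of the controls were alike, and osteoarthritis 1 and 2 were above osteoarthritis 3 and 4. Single genes of the arm were still split among controls, in opposite directions. ASNS was higher in controls 1 and 3, and PPP1R15A was higher in controls 2 and 4.

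The median of the ATF6/XBP1 targets changed sign with the controls it was set against. It was 0.83 with controls 1 and 3 left out and -0.22 with controls 2 and 4 left out. Leaving out controls 1 to 4 in turn gave 0.45, 0.079, 0.43 and 0.13, and leaving out an osteoarthritis library 0.23 to 0.26. When limma-voom weighted the samples it was -0.034. The median of the ATF4 arm was 0.16 without controls 2 and 4, over the 6 genes tested. Without controls 1 and 3 it was -0.15, the value of SESN2, because DDIT3 passed the filter there and joined the set. These medians are therefore not over the same genes. Without controls 1 and 3 the middle values of the 6 genes were -0.15 (SESN2) and 0.97 (ASNS). The median of the arm was -0.20 by DESeq2, -0.18 with no filter and -0.21 with controls 1 and 3 summed. In those settings too DDIT3 was in the set, so the shift is in part a change of genes. When each library was dropped in turn, the median ran from -0.0027 to 0.13.

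The split among controls was common to the abundant folding genes. Controls 1 and 3 were both above controls 2 and 4 for 10 of 11 chaperones, 5 of 6 disulfide enzymes, 6 of 9 degradation genes, 3 of 4 sensors and 3 of 6 genes of the ATF4 arm, 27 of 36 in all, against 30.6% of all genes tested. The order was the opposite for 3 members, WFS1, PPP1R15A and DERL3, against 33.5% of all genes. All 4 osteoarthritis libraries were above controls 2 and 4 for 25 of 36 members, against 15.9% of all genes. They were all above controls 1 and 3 for 5, against 22.5% of all genes: the 4 members without overlap and CHAC1.

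Markers of cell types were split among controls in both directions. Chondrocyte markers, 10 of 10 in the table, were present in every library, with a summed level of 18985 to 133311 CPM in osteoarthritis and 6929.9 to 16129 CPM in controls, and none was at 0. Most of that sum was COL2A1. Of these markers SOX9, the chondrocyte transcription factor, was split as the folding genes were, at 297 and 302 CPM in controls 1 and 3 and 112 and 64.7 CPM in controls 2 and 4. ACAN (aggrecan) and HAPLN1 had the same order among controls. The chondrocyte markers COL11A2, MATN1, MATN3, SNORC and CHAD had the opposite order, and COL2A1 and COL9A1 had neither. Of the fibroblast markers, DPT had the order of the folding genes, and CD34 and CLEC3B had the opposite order. Osteoblast and osteocyte markers, 8 of 8, summed to 4357 to 6346 CPM in osteoarthritis and 501 to 6122 CPM in controls, with controls 1 and 3 at 501 and 538 CPM and controls 2 and 4 at 4611 and 6122 CPM. Osteoclast markers, 5 of 6 in the table, summed to 1302 to 2782 CPM in osteoarthritis and 11.08 to 1855 CPM in controls, again with controls 1 and 3 lowest, at 11.08 and 18.8 CPM. Macrophage markers, 6 of 6, summed to 195 to 657 CPM in osteoarthritis and 24.2 to 678 CPM in controls, with controls 1 and 3 at 24.2 and 28.2 CPM. Liver markers, 2 of 4 in the table and mostly APOA1 in controls 2 and 4, were split in that direction too, at 4.97 and 5.63 CPM in controls 1 and 3 and 43.8 and 45.9 CPM in controls 2 and 4. Osteoarthritis libraries were thus like controls 2 and 4 in summed bone markers and nearer to controls 1 and 3 in chaperones. SP7, of the osteoblast and osteocyte list, went against its sum. It was at 324 and 349 CPM in controls 1 and 3, 222 and 237 CPM in controls 2 and 4 and 192 to 393 CPM in osteoarthritis. The mitochondrial share was 6.15% and 5.46% in controls 1 and 3 and 20.7% and 10.0% in controls 2 and 4. Basal epithelial markers, 5 of 5, summed to 1.01 to 2.09 CPM in osteoarthritis and 91.1 to 376 CPM in controls and did not follow the split. By edgeR all 5 were called lower in osteoarthritis, against 0.618% of all genes tested called in either direction. The other marker lists held no call. Fold changes of the chondrocyte markers were above 0 for 10 of 10, against 50.4% of all genes. The lists were chosen with earlier results of these data known. The part of these cell types and of the mitochondrial share in the levels of the folding genes was not tested.

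**Figure D4:**
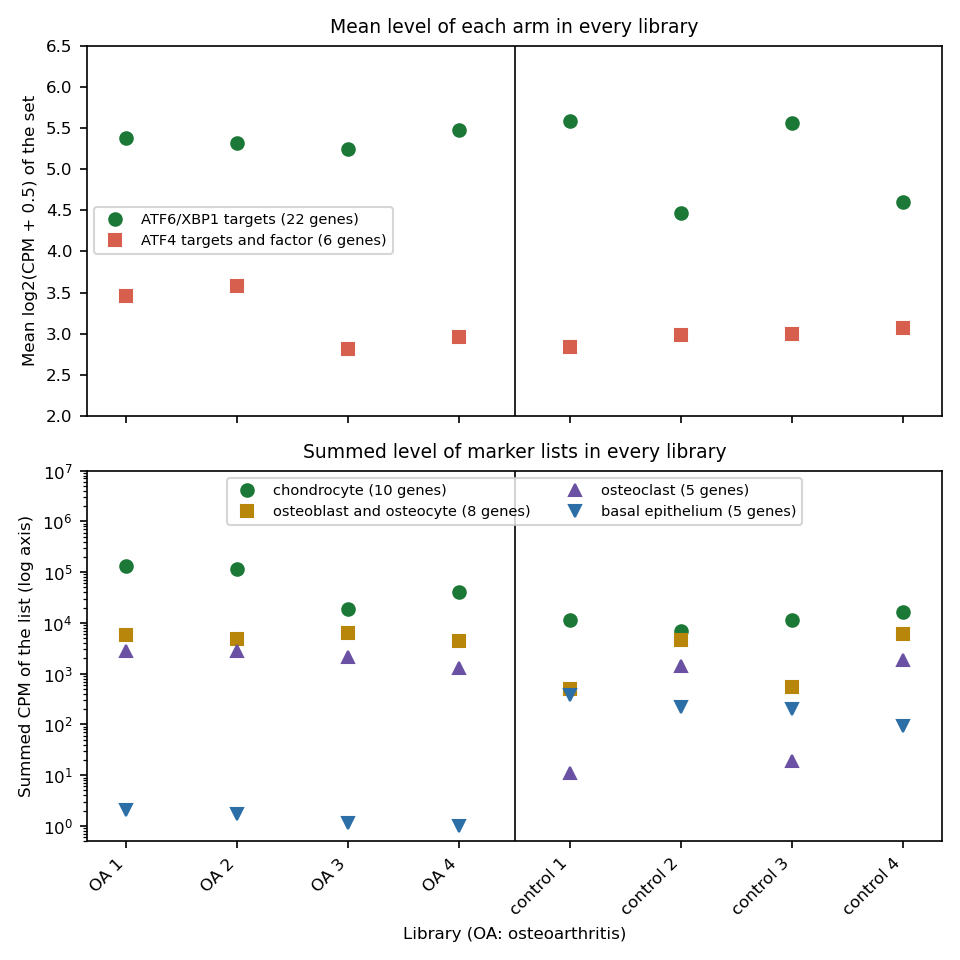
Top, mean log2(CPM + 0.5) of the 22 ATF6/XBP1 targets (green circles) and of the 6 tested genes of the ATF4 arm (red squares) in every library, osteoarthritis (OA) left of control; bottom, summed CPM of 4 marker lists on a log axis. The ATF6/XBP1 targets are at 4.47 and 4.60 in controls 2 and 4 and above 5 in the other 6 libraries, while osteoblast and osteoclast markers are low in controls 1 and 3 alone.

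Other genes of the secretory pathway and of the integrated stress response were followed as 5 lists beside the members, 94 genes in all. MBTPS2 was not analysed here, and GDF15 and FGF21 were too low to be tested. Of 91 tested, 1 passed by edgeR, against 0.618% of all genes. The number called was 5 by DESeq2 (4.75% of all genes), 1 by limma-voom (0.743%) and 10 when voom used sample weights (20.8%). The median was 0.21, and 61 of 91 were above 0, against 50.4% of all genes. The groups did not overlap, with osteoarthritis higher, for 7 of 91, against 5.69% of all genes. With osteoarthritis lower they did not overlap for 2 of 91, against 5.52% of all genes. The 1 that passed was FKBP2, a prolyl isomerase of the ER, which fell to 2.71, 2.03, 1.63 and 2.48 CPM in osteoarthritis replicates 1 to 4, against 6.11, 5.98, 6.95 and 5.05 CPM in control replicates 1 to 4 (log2 fold change -1.44 ± 0.25 (SE), edgeR adjusted p = 0.045; 5.4e-05 to 0.31 over the alternatives). Its groups did not overlap. When each library was dropped in turn, FKBP2 kept its call only without control 4 (edgeR adjusted p = 0.046); without each of the other 7 libraries its adjusted p was 0.072 to 0.15, at fold changes from -1.55 to -1.33.

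Among genes of translocation and N-glycosylation at the ER membrane, 0 of 21 passed, 18 were above 0 and the median was 0.43. RPN2, a subunit of the oligosaccharyltransferase, was at 228, 250.3, 188 and 246 CPM in osteoarthritis and 121, 50.6, 116 and 78.3 CPM in controls, without overlap (log2 fold change 1.32 ± 0.30 (SE), edgeR adjusted p = 0.091). SPCS2, a subunit of the signal peptidase, was at 38.5, 37.1, 49.2 and 48.8 CPM in osteoarthritis and 30.6, 14.02, 23.7 and 22.2 CPM in controls, also without overlap (log2 fold change 0.94 ± 0.25 (SE), edgeR adjusted p = 0.13). DESeq2 called both. Controls 1 and 3 were above controls 2 and 4 in 19 of 21, and in 19 of 21 genes of folding and export, against 30.6% of all genes. The same order held for 5 of 13 other degradation genes, 4 of 6 ER-bound factors and 20 of 30 further ATF4 and stress genes. In folding and export, 16 of 21 were above 0, with a median of 0.35, and MCFD2, a cargo receptor subunit, was at 0.56 ± 0.22 (edgeR adjusted p = 0.27). Other degradation genes had a median of 0.16, with 0 of 13 passing. Their lowest p were those of the lectin ERLEC1 at 0.63 ± 0.19 (edgeR adjusted p = 0.17) and of FAF2 at 0.50 ± 0.18 (edgeR adjusted p = 0.25).

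The ER-bound transcription factors and their processing gave 0 of 6 past the test and a median of -0.10. CREB3L2, which in mice raises the secretory capacity of chondrocytes, was at 225, 278, 122 and 186 CPM in osteoarthritis and 134, 82.5, 145 and 99.03 CPM in controls (log2 fold change 0.81 ± 0.30 (SE), edgeR adjusted p = 0.25), where only osteoarthritis 3 fell within the control range. ATF6B, a relative of ATF6, was at -0.25 ± 0.23 (edgeR adjusted p = 0.64). Of 30 tested genes among further ATF4 targets and the integrated stress response, 0 passed, 17 were above 0 and the median was 0.058. VLDLR, a lipoprotein receptor, was higher in every osteoarthritis library, at 16.05, 10.5, 13.8 and 12.9 CPM against 5.66, 5.98, 7.04 and 6.77 CPM in controls (log2 fold change 1.06 ± 0.20 (SE), edgeR adjusted p = 0.052). ATF5, a transcription factor of the same response, was lower in every osteoarthritis library, at 2.58, 3.38, 1.54 and 1.496 CPM against 5.35, 3.94, 6.25 and 4.51 CPM in controls (log2 fold change -1.18 ± 0.33 (SE), edgeR adjusted p = 0.15). DESeq2 called both of these, in opposite directions.

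**Figure D5:**
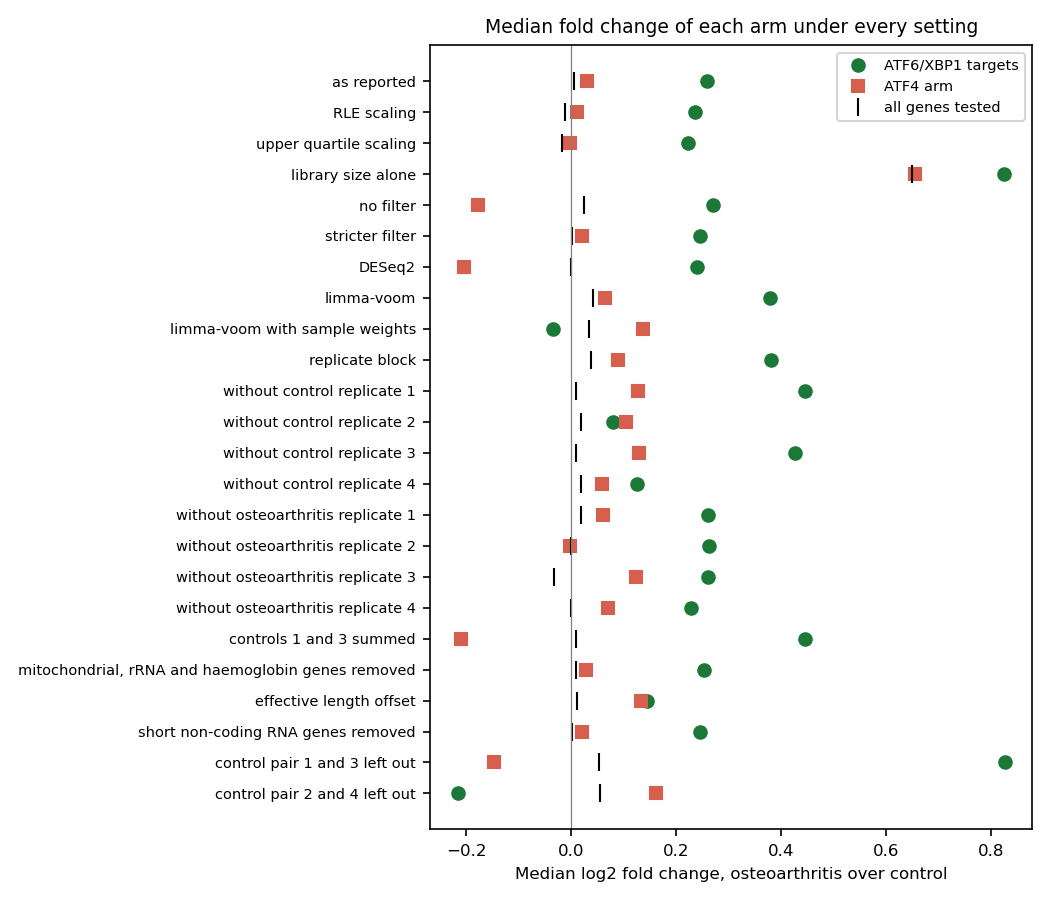
Median log2 fold change of the ATF6/XBP1 targets (green circles), the ATF4 arm (red squares) and all genes tested (black bars) as reported and under each alternative setting. The ATF6/XBP1 median is 0.83 with controls 1 and 3 left out and -0.22 with controls 2 and 4 left out. With library size alone all 3 values move up together. DDIT3 joins the ATF4 arm in some settings, among them controls 1 and 3 left out, so its medians are not all over the same genes.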

How the data were processed

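RNA-seq of condylar cartilage cells was analysed from 1 deposited table. Per the labels' protocols, total RNA was taken with a column kit, depleted of ribosomal RNA and made into directional libraries. The authors deposited whole-number counts, headed raw counts and treated here as estimated counts, with a feature length per gene and library. Tools named in the submitters' processing notes, with neither roles nor strand setting stated, were MultiQC 1.13, Salmon 1.1.0, STAR 2.7.9a, Trim Galore 0.6.7, DESeq2 1.26.0 and StringTie 2.1.0, with build Sscrofa11.1. The deposited TPM equal counts over that length, rescaled to a fixed sum. The 8 deposited log2 TPM columns were not used.

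Estimated counts were rounded, filtered with filterByExpr, scaled by TMM and tested with edgeR 4.0.16 (robust quasi-likelihood, group as sole term; R 4.3.3), adjusted by Benjamini-Hochberg over 16020 genes, with a threshold of 0.05. SE is the fold change over the square root of F. DESeq2 1.42.0 and limma 3.58.1 were alternatives. The edgeR step was tested on simulated data. Symbols came from the file (12365 genes) or, where it has none, from the reference table (558); gene names differ between them for 161. Genes with a conflict were not used in lists. Within each role the 5 members with the smallest p were named, and HSPA5, DDIT3, XBP1, ATF4 and ERO1A in any case, with the 2 smallest p per further list; PPP1R15A, HSP90B1 and the other members were chosen after their values were seen. The members and lists were chosen with earlier results of these data known. Libraries of a group differed beyond sampling noise (chi-square per degree of freedom 35.7 to 545). The closest pairs were osteoarthritis 1 with 2, at 35.7, and controls 1 with 3, at 37.8. The next lowest was osteoarthritis 3 with 4, at 130. If the libraries of a close pair are not separate animals, the tests count too many replicates, and the labels do not settle this. No sequences of these genes were used here.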

Additional observations from a re-analysis of the deposited data

Results flagged for a closer look

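Over 86 groups of 4 values (37 members and 6 library measures in each group), 5 held a library far from the other 3; chance gives about 1 in 20. PDIA4 was at 82.5 CPM in osteoarthritis 3, below the other 3 osteoarthritis libraries, which were at 123 to 128 CPM. DERL1, with 34.8 CPM in osteoarthritis 1, was above the other 3, which were at 31.6 to 31.99 CPM. EDEM1 was at 32.1 CPM in control 2, below the other controls, at 39.96 to 41.4 CPM. Haemoglobin genes took 0.0332% of counts in osteoarthritis 3 and 0.105% in control 4, the highest share of each group.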

How the results depend on the processing

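Depth limits the low members most: DNAJB9, CHAC1, DERL3, ERO1B, TRIB3, SESN2 and DDIT3 rest on fewer than 100 counts in every control library. Over all genes, 99 were called as reported. Each alternative was a new fit with its own calls. Leaving out controls 1 to 4 in turn gave 31, 52, 28 and 152 genes called. Leaving out osteoarthritis 1 to 4 gave 17, 33, 90 and 14, so the range was 14 to 152. The count was 214 with library size alone (median of all genes 0.65, against 0.0049), 858 by DESeq2, 3329 when limma-voom weighted the samples, 31 with controls 1 and 3 summed and 1241 with controls 2 and 4 left out. With the replicate number as a block it was 1, with 0 members and 0 other pathway genes. Same-numbered libraries did not pair: their correlations were -0.34 to -0.018, and 0 of 4 matched best with their own number. Members called were 0 whichever library was dropped, 1 with library size alone (DNAJB9), 2 by DESeq2, 5 when limma-voom weighted the samples and 2 with controls 2 and 4 left out. Other pathway genes called, 1 as reported, were 0 with library size alone, no filter, a length offset or controls 1 and 3 summed, 0 to 1 with a library left out, 2 and 3 with controls 1 and 3 or 2 and 4 left out, 5 by DESeq2 and 10 with voom sample weights. The median of the ATF6/XBP1 targets was 0.83 with library size alone, 0.83 without controls 1 and 3 and -0.22 without controls 2 and 4; that of the ATF4 arm was 0.65 with library size alone and -0.28 with the second DDIT3 model. Of 805 fold changes for 35 named genes under alternatives, 20 turned in sign, none with a call. With library size alone PDIA5 was at 0.29, PDIA6 at 0.31, DERL3 at 0.0041, ATF4 at 0.26, SESN2 at 0.36 and ATF6B at 0.34; with a length offset ATF6B was at 0.10. Without controls 1 and 3 DNAJB11 was at 0.53, PDIA5 at 0.47 and PDIA6 at 0.83; PDIA6 was also at 0.049 without control 1 or control 3 (-0.46 without control 2) and at 0.047 with them summed. Without controls 2 and 4 PDIA3 was at -0.032, XBP1 at -0.011, EIF2AK3 at -0.23, ASNS at -0.097 and HSPA5 at -0.15, and EIF2AK3 was at -0.0025 without control 2 (0.35 without control 3) and -0.10 by limma-voom with sample weights. Apart from library size alone, where the shift of all genes moved them together, the cause of these changes was not tested.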
